A study of Mus musculus with 13 samples.

Results

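The comparison set 6 arrays of 2 freshly isolated non-parenchymal liver populations, Kupffer cells (3 arrays) and liver sinusoidal endothelial cells (LSEC, 3 arrays), against 5 arrays of hepatocytes (3) and of hepatic stellate cells cultured for 1 day (1-day HSC, 2). These 11 arrays were taken from the 13 of the series by their labels. The other 2 arrays, of HSC cultured for 7 and for 14 days, were read beside the result. The genes described are those for which Kupffer cells and LSEC were each above, or each below, both hepatocytes and 1-day HSC. Hepatocytes, Kupffer cells and LSEC came fresh from naive C57BL/6 mice aged 6 to 10 weeks, with no treatment. HSC came from the same strain at the same age and were kept in DMEM with 10% FBS at 37 °C and 5% CO2, conditions under which these cells turn into myofibroblasts. No array of uncultured HSC was used, so for HSC the population and the culture cannot be told apart. The array titles call the arrays biological replicates. Whether they came from separate animals is not given in the sources used here, so p-values measure the spread between these arrays. The RNA was from bulk cells, and fewer cells of a type and less RNA per cell cannot be told apart.

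Kupffer cells are the resident macrophages of the liver, and LSEC form the fenestrated wall of the sinusoid. Both face the blood directly, and both take up particles, immune complexes and waste molecules from it through scavenger and lectin receptors, so that together they are described as the reticuloendothelial or scavenger cell system of the liver. Blood cells and endothelium also share a part of their developmental regulators. Hepatocytes, the epithelial cells that make plasma proteins and metabolise drugs, and HSC, the perisinusoidal cells that store retinoids, lie behind that wall.

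The values are probe-set intensities on a linear scale. Differences are on the scale log2(intensity + 83), the constant being the 20th percentile over all arrays. A fold is understated on this scale for genes of low intensity. A gene was called shared if all 4 differences (Kupffer cells and LSEC, each against hepatocytes and against 1-day HSC) had one direction, a size of at least 1 and an adjusted p below 0.05 by limma. The value given for such a gene is the smallest of its 4 differences, with its standard error (SE), and the adjusted p is the largest of the 4. Each p was adjusted over the 12082 genes tested. The number of arrays limits the precision.

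Marker genes placed the arrays with their labels, and markers of other cells were read at lower levels. The percentages below are of intensities without a background correction. The median Kupffer marker read 162 in LSEC and 174 in hepatocytes. The 22 Kupffer cell markers summed to 165600 to 168500 on the Kupffer arrays, to 6557 to 7457 on the LSEC arrays and to 8485 to 10360 on the hepatocyte arrays. Clec4f, a lectin that marks Kupffer cells, averaged 179 in LSEC and 193 in hepatocytes against 10280 in Kupffer cells, so the defining Kupffer marker lay at the hepatocyte level on the LSEC arrays. Over the 22 markers, the LSEC level was a median of 2.38% of the Kupffer level (range 0.923 to 44.1%). The 24 endothelial markers summed to 16140 to 19160 on the Kupffer arrays against 5186 to 6702 on the hepatocyte arrays, and a median of 6.32% of the LSEC level was read there (range 3.33 to 69.5%). On the 1-day HSC arrays the endothelial markers were read at a median of 15.9% of the LSEC level and the hepatocyte markers at 6.44% of the hepatocyte level, against 5.34% and 1.31% in the longer cultures. The 22 Kupffer cell markers were read on the 1-day HSC arrays at a median of 5.99% of the Kupffer level (range 0.945 to 57.6%). They summed there to 11710 to 15000, above the hepatocyte and LSEC sums, and to 8774 to 15530 in the longer cultures. The part of RNA of other cells in the results was not tested. LSEC replicate 3 had the lowest endothelial sum, 86870 against 129000 and 122100 on the other 2.

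Cdh5, which encodes VE-cadherin of endothelial junctions, had the highest Kupffer level, relative to LSEC, of the 24 endothelial markers. On the LSEC arrays it read 14280, 13320 and 13980, on the Kupffer arrays 10040, 9723 and 9141, on the 1-day HSC arrays 6552 and 5427 and on the hepatocyte arrays 711, 650.3 and 1030. All 6 Kupffer and LSEC arrays lay above the other 5, but the gene was not called, because Kupffer cells exceeded 1-day HSC by only 0.68 (SE 0.151). In HSC cultured for 7 and 14 days Cdh5 read 237 and 422. The Kupffer level of Cdh5 was 69.5% of the LSEC level. The median of the 24 endothelial markers was 251 in Kupffer cells and 218 in hepatocytes. Most of the 24 were higher in Kupffer cells than in hepatocytes, some by little, and a minority were lower. The tight-junction gene Cldn5 averaged 254 in Kupffer cells and 294 in hepatocytes, the receptor kinase Tie1 averaged 232 and 293, and the hyaluronan receptor Lyve1 averaged 340 and 523. Higher in Kupffer cells were the lectin Clec4g, at 1118 and 266, endoglin (Eng), at 709 and 229, and the phosphatase Ptprb, at 373 and 186. These 6 genes were named after their values were seen. Pecam1, an adhesion molecule of endothelium and leukocytes, read 1319, 1174 and 1070 in Kupffer cells, 6177, 5671 and 5178 in LSEC, 1217 and 1092 in 1-day HSC and 237, 264 and 304 in hepatocytes. Its Kupffer and 1-day HSC arrays overlapped, and it was not called.

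**Figure D1:**
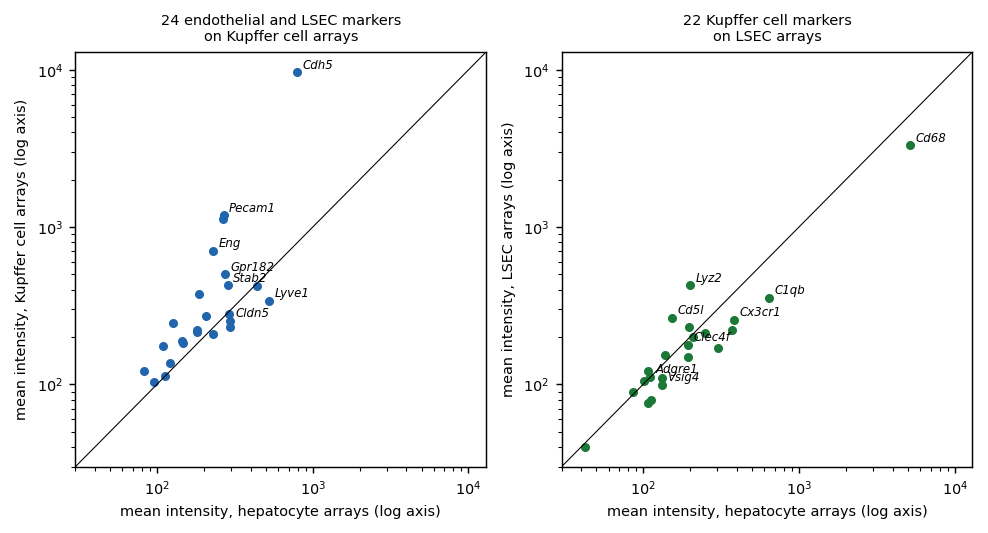
Mean intensity of cell type markers, 1 point per gene, on log axes, against the hepatocyte mean of the same gene, with the line of equal level. Left, 24 endothelial markers on the Kupffer cell arrays, where most genes lie above the line and Cdh5 (9635) stands far above it. Cldn5 (254) and Lyve1 (340) are among the minority below it. Right, 22 Kupffer cell markers on the LSEC arrays, where most genes lie near or below the line.

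Of the 12082 genes, 115 were called higher (0.952%) and 119 lower (0.985%) in both Kupffer cells and LSEC. Every one of the 115 and of the 119 separated all 6 arrays from the other 5. The rule was applied to these same arrays and nearly requires this, also for the single genes below, so it is no added support. Over all genes tested, 10.5% had all 6 arrays above and 6.63% all 6 below, so most genes with non-overlapping arrays did not reach the size asked for. With the 6 arrays averaged against the 5, 934 genes were higher (7.73%) and 884 lower (7.32%), but only 532 and 565 of these had both populations on the same side of both others. The other ways of pairing the 4 populations gave counts from 32 to 298. LSEC and 1-day HSC shared 298 higher genes (2.47%) and 98 lower genes (0.811%), and Kupffer cells and 1-day HSC shared 94 (0.778%) and 32 (0.265%). The smallest of the 4 differences had a median of 1.26 among the 115 higher genes and reached 2 or more for 5 of them. Among the 119 lower genes the median was -1.45 and 21 reached that size. For the higher genes the nearest pair was most often LSEC against 1-day HSC (61 genes) or Kupffer cells against 1-day HSC (32). At the size limit, Gbp4 and Ptges were just inside and Arrb1 and Hrg just outside, all at 1.00 in size after rounding.

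Endocytic and scavenger receptors had the largest share called higher among the pathway lists. Of 26 tested, 6 were higher (23.1%) and 0 lower, namely Mrc1, Clec1b, Clec4g, Stab1, Scarf1 and Mertk. The median averaged difference of the list was 1.59 on the log2 scale, against 0.02 over all genes tested. Mrc1, the mannose receptor that clears glycoproteins and collagen fragments, had the largest shared difference of the 115 higher genes. It read 7372, 8089 and 7632 in Kupffer cells, 2652, 2476 and 1188 in LSEC, 251 and 303 in 1-day HSC and 109.8, 108 and 94.8 in hepatocytes. The 2 sets did not overlap, and the smallest difference, LSEC against 1-day HSC, was 2.53 (SE 0.246, adjusted p = 4.8e-06). Kupffer cells were 1.91 above LSEC (adjusted p = 8.2e-06), and LSEC replicate 3 was the lowest of the 6.

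Clec1b, which encodes the C-type lectin CLEC-2, a receptor for podoplanin, read 6317, 6270 and 5898 in Kupffer cells and 1689, 2037 and 978 in LSEC. Hepatocytes read 255, 214 and 295 and 1-day HSC 171 and 293. The smallest difference was 2.24 (SE 0.216, adjusted p = 7.7e-06), and here too Kupffer cells were the higher of the pair, by 1.98. Stab1, stabilin-1, an endocytic receptor known from both cell types, ran the other way within the pair. LSEC read 4976, 5310 and 4166 and Kupffer cells 1951, 1814 and 1807, against 693 and 741 in 1-day HSC and 327, 315 and 391 in hepatocytes. The smallest difference was 1.28 (SE 0.112, adjusted p = 6.5e-07), and LSEC exceeded Kupffer cells (Kupffer minus LSEC -1.33, adjusted p = 1.7e-07). Clec4g, the lectin LSECtin, read 3029, 2503 and 944 in LSEC and 1504, 1039 and 812 in Kupffer cells, with 306 and 506 in 1-day HSC and 257, 226 and 314 in hepatocytes. It passed by a narrow margin (1.29, SE 0.387, adjusted p = 0.011). It was the only one of the 24 endothelial markers called.

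The other receptors that define each population were not shared. Stab2, the second stabilin, read 7490, 6359 and 4177 in LSEC but 502, 412 and 362 in Kupffer cells, where hepatocytes read 315, 251 and 291. Fcgr2b, the inhibitory Fc receptor by which LSEC take up immune complexes, read 9412, 8762 and 8029 in LSEC, 888, 783 and 593 in Kupffer cells and 2066 and 2132 in 1-day HSC, so Kupffer cells lay below 1-day HSC. Cd5l, a secreted scavenger-receptor protein of macrophages, read 12690, 11550 and 11700 in Kupffer cells and 294, 247 and 251 in LSEC, which overlapped 1-day HSC at 223 and 359. None of the 3 was called. In the list of Fc and other activating or inhibitory immune receptors, 26 of 29 were higher in the averaged contrast and 0 passed the shared rule. That rule called 0.952% of all genes tested higher, so 0 of 29 is near that share. The averaged contrast called 7.73% of all genes tested higher. Fcer1g, the Fc receptor gamma chain, averaged 10910 in Kupffer cells, 2387 in LSEC, 1487 in 1-day HSC and 371 in hepatocytes. Its LSEC difference from 1-day HSC was 0.66 (adjusted p = 0.0079), under the size limit.

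**Figure D2:**
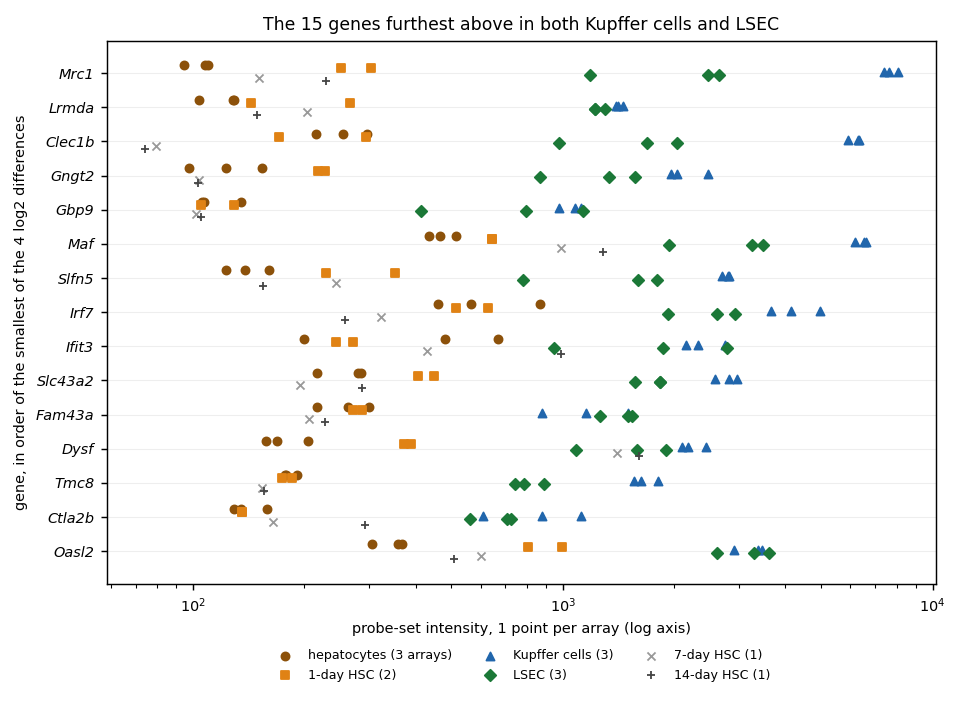
Probe-set intensity on a log axis, 1 point per array, of the 15 genes with the largest shared difference, in order from Mrc1 (2.53) to Oasl2 (1.72). Kupffer (triangles) and LSEC (diamonds) arrays lie to the right of hepatocyte (circles) and 1-day HSC (squares) arrays for each gene, and the 7-day and 14-day HSC arrays (crosses) fall with the latter except for Dysf and 1 array of Ifit3.

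Genes of the interferon response formed a second group. Of 34 tested, 5 were higher (14.7%) and 0 lower: Irf7, Ifit3, Oasl2, Irf8 and Gbp4. In the averaged contrast 17 were higher, against 7.73% of all genes tested, with a list median of 1.01. Irf7, the transcription factor that drives type I interferon genes, read 4947, 3664 and 4149 in Kupffer cells, 2920, 2609 and 1926 in LSEC, 868, 564 and 459 in hepatocytes and 627 and 514 in 1-day HSC. All 6 arrays exceeded the other 5, with a smallest difference of 1.87 (SE 0.201, adjusted p = 1.9e-05). Oasl2, a member of the oligoadenylate synthetase family, was among the most evenly shared genes. It read 3467, 2908 and 3379 in Kupffer cells and 3616, 3285 and 2619 in LSEC, which differed by 0.04. In 1-day HSC it read 806 and 995 and in hepatocytes 359, 304 and 368, so the nearer contrast was 1.72 (SE 0.14, adjusted p = 1e-06). Ifit3, an interferon-induced tetratricopeptide repeat protein, was more variable. It read 2325, 2152 and 2754 in Kupffer cells, 2788, 1862 and 948 in LSEC, 668, 479.5 and 199 in hepatocytes and 243 and 271 in 1-day HSC. The lowest LSEC array stayed above the highest hepatocyte array, and the smallest difference was 1.86 (SE 0.36, adjusted p = 0.00055). The 14-day HSC array, at 990.2, was within the LSEC range.

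Interferon-induced guanosine triphosphatases and related genes outside that list were also among the top genes. Gbp9, a guanylate-binding protein, read 1123, 1081 and 975 in Kupffer cells, 1134, 795 and 413 in LSEC, 135, 107 and 106 in hepatocytes and 105 and 129 in 1-day HSC. Its smallest difference was 2.02 (SE 0.264, adjusted p = 5.8e-05). Slfn5, a Schlafen family member, read 2799, 2812 and 2697 in Kupffer cells and 1799, 1602 and 782 in LSEC against 228 and 352 in 1-day HSC and 123, 138 and 160.5 in hepatocytes. It was 1.93 above the nearer group (SE 0.259, adjusted p = 7.2e-05) and 1.03 higher in Kupffer cells than in LSEC. The interferon response as a whole was not shared. Oas2 read 4113, 5134 and 5031 in Kupffer cells but 223, 182 and 158 in LSEC, which overlapped hepatocytes at 221, 195 and 210.5. Ifit2 read 399, 342 and 181 in LSEC and 157 and 176 in 1-day HSC, and its LSEC difference of 0.60 did not pass (adjusted p = 0.11).

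Sequences upstream of 2 of these genes are shown because they hold more than 1 match to the core of the interferon-stimulated response element. The letters searched were GAAANNGAA on both strands, in windows from 250 bases before to 50 after the start site (RefSeq, GRCm38.p6), and the windows printed were chosen with the matches known. Capitals mark each match, on the strand of the gene.
Ifit3 (chr19:34583364-34583445, plus strand): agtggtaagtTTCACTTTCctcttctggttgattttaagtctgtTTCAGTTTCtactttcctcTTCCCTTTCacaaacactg
Slfn5 (chr11:82951937-82951988, plus strand): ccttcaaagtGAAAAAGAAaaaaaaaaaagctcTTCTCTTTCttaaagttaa
Ifit3 had 3 matches, starting 155, 121 and 102 bases upstream of its start site, and Slfn5 had 2, at 155 and 132 bases. The element was found in 8 of the 87 higher genes with a window (9.2%), in 4 of the 87 lower genes (4.6%), in 8.51% of the 9706 tested genes with one and in 9.76% of all 27025 genes of the table.

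Transcription factors of blood and endothelial cells gave 5 higher genes of 49 tested (10.2%) and 0 lower, namely Maf, Lmo2, Irf8, Tfec and Fli1. In the averaged contrast 21 were higher and 1 lower, against 7.73% and 7.32% of all genes tested. Maf, a bZIP factor known from macrophages and from sinusoidal endothelium, read 6154, 6515 and 6627 in Kupffer cells, 3488, 3244 and 1940 in LSEC, 643 and 644 in 1-day HSC and 434, 514 and 466 in hepatocytes. The groups were separated by 1.99 or more (SE 0.187, adjusted p = 3.5e-06), and Kupffer cells were 1.17 above LSEC. Lmo2, a bridging factor needed for early blood and vessel formation, was nearly equal in the pair, with 2243, 1954 and 2290 in Kupffer cells and 2239, 2405 and 1115 in LSEC. It read 494 and 558 in 1-day HSC and 349, 258 and 228 in hepatocytes, a smallest difference of 1.65 (SE 0.252, adjusted p = 0.0002). LSEC replicate 3 was again the lowest of the 6.

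Irf8, which directs macrophage and dendritic cell development, read 4539, 4065 and 4058 in Kupffer cells, 2323, 2353 and 1810 in LSEC, 675 and 729 in 1-day HSC and 344, 404 and 369 in hepatocytes. Its smallest difference was 1.51 (SE 0.116, adjusted p = 6.3e-07). Tfec, a macrophage member of the MiT family, read 3983, 3867 and 4272 in Kupffer cells and 3474, 4173 and 3183 in LSEC, again with overlapping arrays within the pair. Hepatocytes were lowest at 154, 156 and 164, and 1-day HSC lay between at 1069 and 1429, leaving a smallest difference of 1.48 (SE 0.128, adjusted p = 1.8e-06). Fli1, an ETS factor of blood and endothelium and the last of the 5, had a smallest difference of 1.45 (adjusted p = 6.2e-06). Spi1, which encodes the macrophage regulator PU.1, was not shared. It read 8722, 8305 and 8968 in Kupffer cells, 214, 214 and 159.9 in LSEC and 171, 129 and 189.7 in hepatocytes, and 1-day HSC at 533 and 655 exceeded LSEC. Zeb2 read 5157, 5158 and 5719 in Kupffer cells, above 1-day HSC at 2043 and 2586, but LSEC at 1883, 1935 and 2044 overlapped 1-day HSC.

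Sensors of microbial products gave 3 higher genes of 32 tested (9.38%) and 0 lower. In the averaged contrast 18 were higher, against 7.73% of all genes tested. Tlr4, the endotoxin receptor, read 1306, 1460 and 1163 in Kupffer cells, 836, 899 and 1064 in LSEC, 266 and 278 in 1-day HSC and 68.6, 44.5 and 59.0 in hepatocytes. Its smallest difference was 1.51 (SE 0.12, adjusted p = 8e-07). HSC cultured for 7 and 14 days read 535 and 582, above both 1-day arrays. Casp1, the inflammatory caspase that cleaves pro-interleukin-1 beta, read 1048, 1329 and 1276 in Kupffer cells and 330.4, 305 and 300.2 in LSEC against 74.1 and 81.3 in 1-day HSC and 63.7, 63.2 and 61.2 in hepatocytes. It was 1.30 above the nearer group (SE 0.0981, adjusted p = 5.4e-07) and 1.71 higher in Kupffer cells than in LSEC. Nod1, a cytosolic sensor of bacterial peptidoglycan, read 2004, 1846 and 2021 and 1036, 1045 and 919 in the pair, with 371 and 434 in 1-day HSC and 172, 185 and 157 in hepatocytes, a smallest difference of 1.16 (SE 0.0944, adjusted p = 1e-06).

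Other inflammasome genes did not pass or came from another list. Aim2, the cytosolic DNA sensor, read 783, 757 and 570.2 in LSEC and 311 and 319 in 1-day HSC, and its LSEC difference of 0.97 was just under the size limit (adjusted p = 6.4e-05). Nlrp3 was not shared, with 3064, 3458 and 4224 in Kupffer cells but 126, 112 and 91.4 in LSEC, overlapping 1-day HSC at 94.7 and 118. P2rx7, the ATP-gated channel whose opening activates Nlrp3, was called from another list (1 of 27 purinergic and related receptors higher, 3.7%). It read 2128, 1919 and 2029 in Kupffer cells, 877, 1329 and 2829 in LSEC, 528, 742 and 427 in hepatocytes and 477 and 520.5 in 1-day HSC. LSEC arrays were spread widely and the lowest lay just above the highest hepatocyte array (1.31, SE 0.305, adjusted p = 0.0041).

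Lysosomal genes gave 4 higher of 35 tested (11.4%) and 0 lower, and all 4 were enzymes of degradation in the lumen. Hexa, the alpha subunit of beta-hexosaminidase that degrades gangliosides, read 6069, 4909 and 4819 in Kupffer cells, 3157, 3826 and 3681 in LSEC, 1151 and 1420 in 1-day HSC and 1192, 959.8 and 1044 in hepatocytes. Its smallest difference was 1.41 (SE 0.135, adjusted p = 4.1e-06). Ctsd, the aspartic protease cathepsin D, read 12090, 10570 and 9829 in Kupffer cells and 8512, 9761 and 10650 in LSEC, and between 3843 and 4392 on the 5 other arrays (1.20, SE 0.118, adjusted p = 5.1e-06). Manba, beta-mannosidase, read 871, 772 and 741 and 886, 884 and 893 against 218 to 322 (1.16, SE 0.0739, adjusted p = 2.1e-08). Glb1, beta-galactosidase, read 2240, 1727 and 1810 and 1132, 1207 and 1207 against 376 to 545 (1.04, SE 0.108, adjusted p = 8.2e-06). For Hexa, Ctsd and Glb1 both longer HSC cultures lay on the Kupffer and LSEC side, for example at 6952 and 9896 for Ctsd. The cysteine protease Ctss was high in only one of the pair, with 9812, 9512 and 9795 in Kupffer cells and 303, 278 and 251 in LSEC, below 1-day HSC at 761 and 983. Abca1, the exporter that loads cholesterol onto apolipoprotein A-I, was the 1 higher gene of 33 nuclear receptor and lipid regulator genes (3.03%). It read 4733, 4311 and 4046 in Kupffer cells, 2502, 2386 and 2868 in LSEC, 1098, 1083 and 1157 in hepatocytes and 624 and 911 in 1-day HSC (1.15, SE 0.12, adjusted p = 2.8e-06).

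Among signalling and cytoskeletal genes of blood-derived cells, 42 of 49 were higher in the averaged contrast, against 7.73% of all genes tested. Only 2 passed the shared rule (4.08%). Lcp2, the adaptor SLP-76 downstream of ITAM receptors including CLEC-2, read 7603, 8248 and 8152 in Kupffer cells, 3073, 2006 and 2241 in LSEC, 799.6 and 912 in 1-day HSC and 200.4, 198 and 250.1 in hepatocytes (1.41, SE 0.15, adjusted p = 1.1e-05). Vav3, a guanine nucleotide exchange factor, was higher in LSEC, with 524, 597 and 556, than in Kupffer cells, with 292, 310 and 361, and lay between 74.9 and 117 on the other 5 arrays (1.01, SE 0.0927, adjusted p = 9.3e-07). Prkcb and Inpp5d were 2 members that stopped short, with LSEC differences from 1-day HSC of 0.80 (adjusted p = 0.01) and 0.86 (adjusted p = 8.3e-05). Csf2rb2, a beta chain of the interleukin-3 receptor, was the 1 higher gene of 27 cytokine receptors (3.7%). It read 2914, 2289 and 2335 in Kupffer cells and 2506, 2076 and 1626 in LSEC, with overlapping arrays, against 544 and 776 in 1-day HSC and 89.7, 103 and 119 in hepatocytes (1.53, SE 0.177, adjusted p = 2.1e-05). Its close paralogue Csf2rb was higher in Kupffer cells than in LSEC by 2.43 and was not called. The 2 genes are near-identical in sequence, so the split of signal between their probe sets is uncertain. Cd55, which dissociates complement convertases, was the 1 higher gene of 27 complement genes (3.7%), and it was higher in LSEC, with 1849, 1827 and 1482, than in Kupffer cells, with 663, 398 and 701.

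Several lists that describe one of the populations gave no shared gene by the limma rule, although many members were higher on average. Among all genes tested, 0.952% were called higher by that rule and 7.73% in the averaged contrast. A count of 0 in lists of this length is therefore near the overall share. Of 46 endothelial junction and vessel genes 0 were shared and 17 were higher in the averaged contrast, and of 22 Kupffer cell markers 0 and 19. MHC class II and costimulation genes gave 0 of 14 and 10, and MHC class I genes 0 of 16 and 5. Leukocyte adhesion molecules gave 0 of 23 and 11, chemokines and their receptors 0 of 25 and 8, and the GIMAP genes 0 of 6 and 3. In 2 examples only 1 of the populations was high. H2-Aa, an MHC class II chain, read 12680, 14500 and 15230 in Kupffer cells and 233, 188 and 251 in LSEC, where 1-day HSC read 455 and 475. Gimap6 read 5397, 5279 and 2803 in LSEC and 362, 275 and 273 in Kupffer cells, where 1-day HSC read 712 and 742. Tapbp, which loads peptide on MHC class I, came closest among the class I genes, at 0.86 (adjusted p = 4.6e-06), with 4062, 3340 and 3501 in Kupffer cells, 2377, 2478 and 2019 in LSEC and 805 to 1239 on the other 5 arrays. Vcam1, of the adhesion list, was closer to the limit, at 0.99 (adjusted p = 0.00016). Markers of B cells (0 of 4), T and NK cells (0 of 3) and the erythroid and platelet lineages (0 of 5) gave no called gene, and 1 of 4 monocyte, dendritic cell and neutrophil markers did, Clec9a. It read 3066, 2797 and 2224 in Kupffer cells, 600.1, 1025 and 389 in LSEC, 139, 114 and 158 in hepatocytes and 84.0 and 115 in 1-day HSC (1.69, SE 0.238, adjusted p = 7.6e-05). The dendritic cell factor Batf3 read 969, 907 and 875 in Kupffer cells and 243, 219 and 239.6 in LSEC, where hepatocytes read 247, 211 and 319.8, and Zbtb46 read 240.1, 213 and 184 in Kupffer cells and 359.9, 369 and 330.5 in LSEC. Summed markers of other blood cells were higher on the Kupffer arrays than on the LSEC arrays. The 9 B and plasma cell markers measured summed to 2704 to 4447 there, against 936 to 967.5 on the LSEC arrays and 1026 to 1111 on the hepatocyte arrays. The 12 T and NK cell markers summed to 1692 to 1946, 1020 to 1106 and 1129 to 1303. Cd79b, of the B cell receptor, averaged 1404 in Kupffer cells and 157 in LSEC, and the NK cell receptor gene Klrk1 averaged 427 and 41.5. Of the 12 T and NK cell markers measured, only 3 were intense enough to be tested, and Klrk1 was not typical of the list. Cd3d averaged 67.7 in Kupffer cells and 65.85 in LSEC, Ncr1 55.7 and 47.9, Gzma 61.2 and 51.8, and Cd4 232 and 123. The part of such cells in the Kupffer levels was not tested.

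The remaining genes at the top of the higher set belong to none of the lists. Lrmda, a leucine-rich repeat gene, was the second largest and the most even of the top 3. It read 1407, 1394 and 1456 in Kupffer cells, 1304, 1221 and 1223 in LSEC, 266 and 144 in 1-day HSC and 128, 104 and 129 in hepatocytes, and its smallest difference was 2.24 (SE 0.143, adjusted p = 1.2e-07). Gngt2, a G protein gamma subunit, read 1957, 2473 and 2041 and 1568, 1336 and 869.9 in the pair and 97.4 to 227 on the other 5 arrays (2.10, SE 0.195, adjusted p = 3.3e-06). Slc43a2, a transporter of large neutral amino acids, read 2966, 2820 and 2585 and 1569, 1830 and 1829 against 216 to 448 (1.84, SE 0.112, adjusted p = 8.2e-08). Dysf, dysferlin of membrane repair, read 2185, 2440 and 2106 and 1589, 1905 and 1084 against 157 to 388 (1.76, SE 0.175, adjusted p = 5.8e-06). In longer HSC cultures Dysf read 1402 and 1604, within the LSEC range. Tmc8, a transmembrane channel-like gene, and its genomic neighbour Tmc6 were both called, at 1.74 (SE 0.0847, adjusted p = 2.5e-08) and 1.37. Fam43a, Ctla2b, Sema4c and Stard9 had smallest differences of 1.77, 1.74, 1.70 and 1.65, with Kupffer cells and LSEC within 0.5 of each other. Dhrs3, a retinal reductase, also met that limit, with 2925, 2928 and 2564 in Kupffer cells, 2754, 5940 and 2417 in LSEC and 573 to 1055 on the other 5 arrays. Its longer HSC cultures read 3909 and 4459, as high as the pair.

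Levels within the pair were compared next. Of the 115 higher genes, Kupffer cells also exceeded LSEC by the same rule in 23 (20%), and LSEC exceeded Kupffer cells in 6 (5.22%), while 86 passed in neither direction. Over all genes tested 9.54% were higher in Kupffer cells than in LSEC and 10.3% lower. Of the 115 genes, 56 lay within 0.5 on the log2 scale. The extremes, named after their values were seen, were the cytokine gene Tnf (2.66 higher in Kupffer cells) and the kinase gene Prkch (Kupffer minus LSEC -1.59). The LSEC level was a median of 81.5% of the Kupffer level over the 115 genes, with a range of 13.6 to 321%. Only 2 were under 20%, and 91 were at 50% or more. LSEC replicate 3, the array with the lowest endothelial sum, was the lowest LSEC array for 78 of the 115. How often it was the lowest over all genes tested was not computed.

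**Figure D3:**
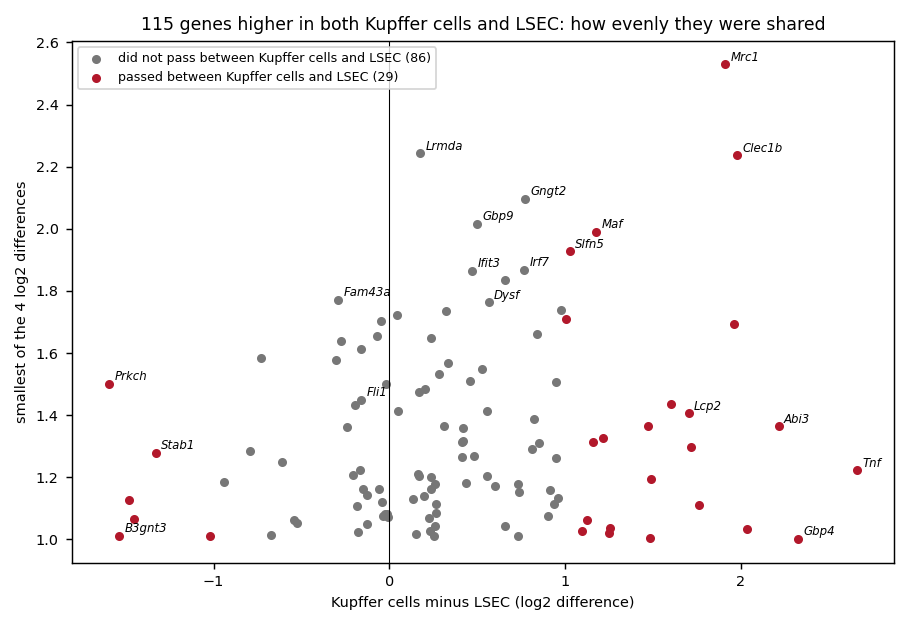
The 115 higher genes by the log2 difference between Kupffer cells and LSEC (horizontal) and the smallest of the 4 differences from hepatocytes and 1-day HSC (vertical). Red points (29) passed between Kupffer cells and LSEC, and grey points (86) did not. Mrc1 and Clec1b lean to Kupffer cells, Stab1 and Prkch to LSEC, and Lrmda lies near 0.

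When HSC had been cultured longer, most of the higher genes stayed low in them. Both the 7-day and the 14-day array lay on the hepatocyte and HSC side of the midpoint for 93 of the 115 genes, both lay on the Kupffer and LSEC side for 15, and 7 were divided. The 15 included Tlr4, Dysf, Dhrs3, Hexa, Ctsd, Glb1 and Plau, the last encoding the urokinase plasminogen activator. Mrc1 stayed low, at 150.4 and 228, and Clec1b at 79.3 and 74.0, below every hepatocyte array. With 1 array at each time these are values without a test.

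The genes lower in both populations had larger differences. Prg4, lubricin, a secreted mucin-like glycoprotein, had the largest. It read 2887, 3431 and 3714 in hepatocytes and 3116 and 2537 in 1-day HSC against 76.2, 50.4 and 73.0 in Kupffer cells and 59.7, 57.1 and 54.2 in LSEC, a smallest difference of -4.28 (SE 0.123, adjusted p = 1.1e-10). Hepatocytes and 1-day HSC were close for this gene, but HSC cultured for 7 and 14 days read 73.2 and 213. Serping1, which encodes the C1 inhibitor, read 8453, 9503 and 10350 in hepatocytes, 2886 and 3444 in 1-day HSC, 119.9, 119.6 and 96.2 in LSEC and 148, 72.7 and 139.9 in Kupffer cells (-4.01, SE 0.159, adjusted p = 1.7e-09), and stayed at 6028 and 3060 in longer cultures. Egfr, the epidermal growth factor receptor, read 4950, 5626 and 6132 in hepatocytes and 3448 and 4024 in 1-day HSC, and no array of the pair exceeded 208 (-3.83, SE 0.119, adjusted p = 2.3e-10). Fn1, the matrix and plasma protein fibronectin, read 6317, 6460 and 7434 and 6201 and 6432 against at most 442 (-3.73, SE 0.152, adjusted p = 2.3e-09), and longer cultures read 12680 and 17510. For all 4 genes the arrays of the pair and the other 5 did not overlap.

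**Figure D4:**
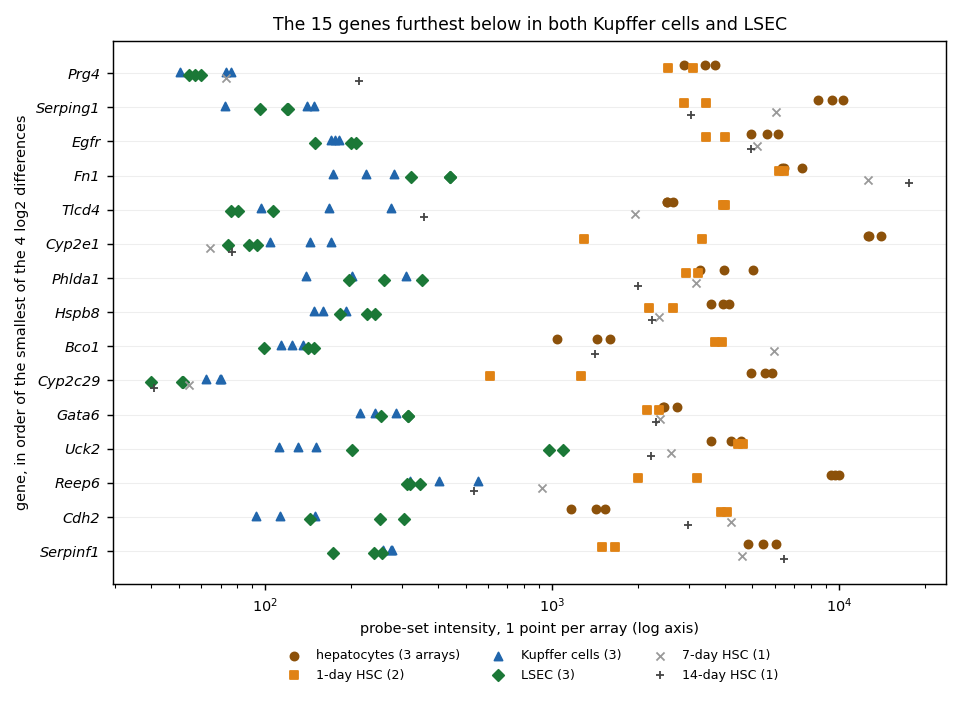
Probe-set intensity on a log axis, 1 point per array, of the 15 genes furthest below in Kupffer cells and LSEC, from Prg4 (-4.28) to Serpinf1 (-2.23). Kupffer (triangles) and LSEC (diamonds) arrays lie to the left. The 7-day and 14-day HSC arrays (crosses) stay to the right for Egfr, Fn1 and Gata6 and fall to the left for Prg4, Cyp2e1 and Cyp2c29.

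The 119 lower genes divided by what the longer HSC cultures read. For 54 genes both long-culture arrays stayed on the hepatocyte and HSC side, for 54 both lay on the Kupffer and LSEC side, and 11 were divided. In the first 54 the 1-day HSC level was a median of 79.1% of the hepatocyte level (range 6.4 to 1180%). In the other 54 it was a median of 9.11% (range 2.84 to 155%), and hepatocytes exceeded 1-day HSC by the same rule in 47 of them, against 16 of the first 54. Over all genes tested 10.1% were higher in hepatocytes than in 1-day HSC and 12.3% lower, and among the 119 these shares were 57.1% (68 genes) and 7.56% (9 genes). The hepatocyte markers summed to 27940 on 1-day HSC replicate 1 and 15160 on replicate 2. Replicate 1 exceeded replicate 2 for 50 of the 54 genes that were low in longer culture and for 29 of the 54 that were not. The rule used both of these arrays, and the same share over all genes tested was not computed. The part of hepatocyte RNA on the 1-day arrays in these calls was not tested.

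**Figure D5:**
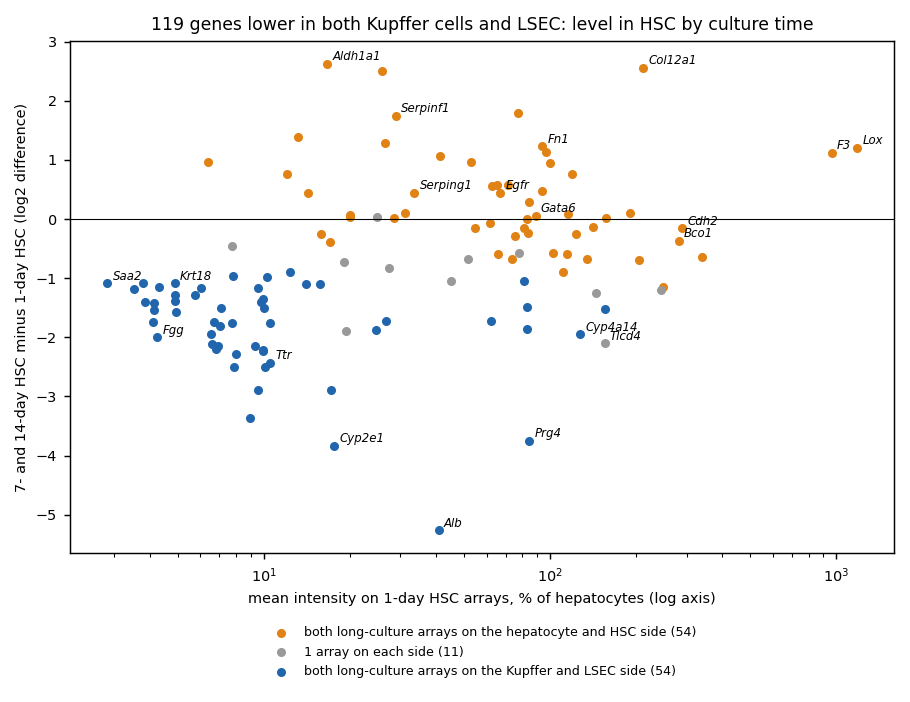
The 119 lower genes by their 1-day HSC level in percent of the hepatocyte level (horizontal, log axis) and the log2 difference of 7-day and 14-day from 1-day HSC (vertical). Orange points (54) kept both long-culture arrays on the hepatocyte and HSC side, as Fn1, Egfr and Gata6 did. Blue points (54) had both on the Kupffer and LSEC side, as Alb, Ttr and Cyp2e1 did, and cluster at low 1-day levels.

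The genes that stayed on in longer cultures included a transcription factor, a polarity gene and inhibitors of growth factor signalling. Gata6, a GATA factor of endoderm and mesoderm, was nearly level on all 7 arrays of hepatocytes and HSC, with 2458, 2436 and 2735 in hepatocytes, 2371 and 2153 at 1 day, 2379 at 7 days and 2306 at 14 days. Kupffer cells read 242, 287 and 215 and LSEC 316, 254 and 314 (-2.64, SE 0.113, adjusted p = 3.6e-09). Pard3, a polarity scaffold, read 864, 848 and 871 in hepatocytes, 819 and 944 in 1-day HSC and, lower, 549.8 and 577 in longer culture, against 191, 178 and 171 and 183, 169 and 168 in the pair (-1.84, SE 0.0741, adjusted p = 3.7e-09). Errfi1, a feedback inhibitor of the epidermal growth factor receptor, read 12670, 12250 and 12570 and 10070 and 10150 against 869, 998 and 1123 in Kupffer cells and 2168, 2081 and 2302 in LSEC (-2.17, SE 0.0986, adjusted p = 5.5e-09). Phlda1, Hspb8 and Elovl6 had smallest differences of -3.19, -3.06 and -2.19. Uck2, a uridine-cytidine kinase, differed within the pair, with 151, 130.5 and 112 in Kupffer cells and 976, 1093 and 202 in LSEC (-2.56, SE 0.394, adjusted p = 0.00032). LSEC replicate 3 was far below the other 2 LSEC arrays for Uck2.

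Cadherin and junction genes were part of this set. Cdh2, N-cadherin, read 4077 and 3873 in 1-day HSC, 1427, 1537 and 1164 in hepatocytes, 149.7, 113 and 93.3 in Kupffer cells and 252, 306 and 143 in LSEC (-2.23, SE 0.177, adjusted p = 2.3e-07). Of 21 keratin, desmosome and tight junction genes, 4 were lower (19%) and 0 higher: Cdh2, the plakophilin Pkp2 (-1.90, adjusted p = 2.9e-06), and the simple-epithelial keratins Krt8 (-1.16, adjusted p = 0.00064) and Krt18 (-1.05, adjusted p = 0.0019). Krt18 read 14710, 14800 and 14970 in hepatocytes but 1015 and 431 in 1-day HSC and 311 and 233 in longer culture. Its Kupffer and LSEC arrays lay between 223.5 and 304.3, so the longer cultures fell within that range or close to it. Cdh1, E-cadherin, was a hepatocyte gene here, with 3025, 3044 and 3137 in hepatocytes and 163 and 173 in 1-day HSC, and was not called. Of 35 matrix genes 2 were lower (5.71%), Fn1 and the glypican Gpc4 (-1.76, SE 0.102, adjusted p = 5e-08). Of 35 growth factor receptors Egfr alone was called (2.86%), and the growth hormone receptor Ghr missed it because LSEC, at 1813, 2068 and 2428, came within -0.58 of 1-day HSC at 3180 and 3141.

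Some lower genes were mainly those of HSC. Lox, the collagen cross-linking lysyl oxidase, read 5062 and 5068 in 1-day HSC and 827, 249 and 211 in hepatocytes, where replicate 1 was well above the other 2, against 86.2, 84.1 and 94.3 in Kupffer cells and 61.5, 56.8 and 66.9 in LSEC (-1.38, SE 0.307, adjusted p = 0.0015). It was the only one of 19 stellate and mesenchymal markers called (5.26%). Acta2, the smooth muscle actin of activated HSC, read 7461 and 9745 in 1-day HSC and 229, 240.5 and 265 in hepatocytes, which overlapped LSEC at 278, 229 and 182 and lay just above Kupffer cells at 219, 223 and 206. Reln, a secreted HSC marker, read 4331 and 4597 in 1-day HSC and 225, 195 and 158 in hepatocytes. Neither was called. Nt5e, the ecto-5'-nucleotidase CD73, read 1139 and 975 in 1-day HSC, 726, 391 and 184 in hepatocytes and at most 129 in the pair (-1.21, SE 0.281, adjusted p = 0.0021). Bco1, the enzyme that cleaves beta-carotene to retinal, read 3700 and 3927 in 1-day HSC, 1596, 1436 and 1044 in hepatocytes and at most 148 in the pair (-2.75, SE 0.137, adjusted p = 2.8e-09). Dusp5, a phosphatase of ERK kinases, was the 1 lower gene of 34 immediate-early and dissociation stress genes (2.94%). In the averaged contrast 5 of that list were higher, against 7.73% of all genes tested. Fosb was one of these, with 8780, 11190 and 11350 in Kupffer cells but 269, 286 and 226 in LSEC.

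The genes that were low in longer HSC culture were mostly plasma proteins and enzymes of hepatocytes. Of 23 hepatocyte markers 12 were lower (52.2%), and all 23 were lower in the averaged contrast, against 7.32% of all genes tested. Alb, serum albumin, read 18470, 18670 and 18560 in hepatocytes and 8855 and 6285 in 1-day HSC, but 3374, 1027 and 2292 in Kupffer cells and 171, 235 and 278 in LSEC (-1.85, SE 0.347, adjusted p = 0.00045). Kupffer cells exceeded LSEC by 2.76. The hepatocyte markers summed to 11860 to 15770 on the Kupffer arrays against 3010 to 3336 on the LSEC arrays. Most of the Kupffer sum came from Trf, transferrin, which averaged 7543, and from Alb, and the median marker was 195 in Kupffer cells and 127 in LSEC. Alb read 114 and 113 on the 7-day and 14-day HSC arrays. Ttr, transthyretin, read 12860, 12590 and 12470 in hepatocytes, 1779 and 865 in 1-day HSC and at most 362 in the pair (-1.88, SE 0.254, adjusted p = 3.2e-05), and 1-day replicate 1 was well above replicate 2, as for Apoc3 at 1703 and 742 and Serpina1c at 1733 and 654. Tat, which degrades tyrosine, and Cyp2f2 were hepatocyte genes read in 1-day HSC at 123 and 137 and 140.4 and 241, near the Kupffer level, and were not called. The cytochromes Cyp2e1 and Cyp2c29 were among the top lower genes, with 3340 and 1299 and 1265 and 610.4 in 1-day HSC and 14050, 12660 and 12770 and 4942, 5552 and 5846 in hepatocytes. Their smallest differences were -3.30 (SE 0.272, adjusted p = 4.3e-07) and -2.69 (SE 0.201, adjusted p = 2.6e-07). Reep6, an endoplasmic reticulum protein, had -2.39 (adjusted p = 3.4e-07).

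Secreted proteins of parenchyma and mesenchyme gave 9 lower genes of 28 (32.1%) and 0 higher. Serpinf1, the pigment epithelium-derived factor, read 4809, 5450 and 6048 in hepatocytes and 1655 and 1491 in 1-day HSC, and at most 276 in the pair (-2.23, SE 0.128, adjusted p = 1.9e-08). It read 4585 and 6451 in longer culture. Rbp4, the retinol carrier, went the other way in culture, from 1636 and 589 at 1 day to 105 and 108 (-2.03, SE 0.275, adjusted p = 3.1e-05). Lcn2, an iron-siderophore binding acute-phase protein, read 14560, 14330 and 14120 in hepatocytes and 3993 and 1567 in 1-day HSC against 517, 535 and 661 in LSEC and 124, 116 and 127 in Kupffer cells (-1.99, SE 0.263, adjusted p = 6.1e-05). Of 27 complement genes 2 were lower (7.41%), Serping1 and the protease C1s1 (-1.17, adjusted p = 1.1e-05). Longer cultures read 490.1 and 1257 for C1s1, above both 1-day arrays at 233 and 270.4.

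Detoxification and lipid enzymes completed the lower set. Of 33 alcohol, aldehyde, glutathione and NRF2 genes 4 were lower (12.1%) and 0 higher. Aldh1a1, a retinal dehydrogenase, read 4574, 5066 and 5483 in hepatocytes, 806 and 870.4 in 1-day HSC and 6779 and 4579 in longer culture, against at most 185 in the pair (-1.89, SE 0.106, adjusted p = 1e-08). Adh1 (-1.45, adjusted p = 0.0018), Gstm1 (-1.14, adjusted p = 0.00031) and Srxn1 (-1.07, adjusted p = 0.0098) were the others. For Srxn1, sulfiredoxin, LSEC replicate 3 read 3573, against 1338 and 1862 on the other 2, and the lowest 1-day array 4344. Of 33 nuclear receptor and lipid genes 2 were lower (6.06%): the desaturase Fads2 (-1.63, adjusted p = 5e-07) and Nr1h4, the bile acid receptor FXR (-1.22, adjusted p = 1.7e-05). Nr1h4 read 353, 394 and 298 in hepatocytes and 380.2 and 702 in 1-day HSC. Ptges, a prostaglandin E synthase, was 1 of 15 prostanoid genes (6.67%). Secretory pathway genes (0 of 31) and YAP and serum response targets (0 of 29) gave none, with 3 and 9 lower in the averaged contrast. The share called lower among all genes tested was 0.985%, so these counts of 0 are near it. In the averaged contrast that share was 7.32%.

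Called genes lay close to each other in the RefSeq order of protein-coding genes at several places. Neighbours here are next to each other or have a single gene between them. How often this occurs over all genes tested was not computed. Of the higher genes with a place in that order, 18 formed 9 such pairs. Among them were Clec1b with Clec9a, Gbp9 with Gbp4, Tmc6 with Tmc8, Scarf1 with Slc43a2, Abi3 with Gngt2, and Sp140 with Sp100. Of the lower genes 17 lay in 7 runs. These were 5 Cyp4a genes, Krt8 with Krt18, Fgg with Fgb, Apoa1 with Apoc3, Orm1 with Orm2, Gstm3 with Gstm1, and Ugt2b34 with Ugt2b1. Several neighbours are near-identical copies (Cyp4a12a and Cyp4a12b, Orm1 and Orm2), and the signal of their probe sets cannot be assigned with certainty.

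Other motifs were searched in the same windows. The PU.1 site GAGGAAGT was found in 7 of the 87 higher genes with a window (8.05%), in 3.55% of the tested genes and in 3 of the 87 lower genes (3.45%). The related ETS core CCGGAAGT was found in 2.3% of the higher genes, 1.15% of the lower genes and 8.39% of the tested genes. The PU.1 and IRF composite GGAANNGAA, whose matches can overlap those of the interferon element, was found in 12.6% of the higher genes, 5.75% of the lower and 9.03% of the tested. The AP-1 site TGAGTCA was found in 8.05% and 10.3% against 4.86%, and the HNF1 element GTTAATNAT in 0 of the higher genes and 4 of the 87 lower genes (4.6%) against 0.639%. The MAF half-site TGCTGACT was found in 1.15% of the higher, 0 of the lower and 1.37% of the tested genes. In the same order, the TEAD site GGAATGT was found in 1.15%, 5.75% and 3.39%. The HNF4 site CAAAGTCCA was found in 1.15%, 2.3% and 0.618%, and the C/EBP palindrome TTGCGCAA in 0, 1.15% and 0.319%. Shares of the called genes rest on few genes each. Both strands were read. The windows below show PU.1 matches of higher genes and HNF1 matches of lower genes, chosen with the matches known, with each match in capitals on the strand of the gene.
Rapgef5 (chr12:117516458-117516485, plus strand, PU.1): tgaataaaggGAGGAAGTgacatcacag
Pacc1 (chr1:191325771-191325798, plus strand, PU.1): gtaacaaagaGAGGAAGTgcgaggctat
Nceh1 (chr3:27182921-27182948, plus strand, PU.1): ccgcgctcccACTTCCTCccgacgcagc
Alb (chr5:90460828-90460856, plus strand, HNF1): ggtaagtatgGTTAATGATctacagttat
Pcbd1 (chr10:61089297-61089325, plus strand, HNF1): gaggacccatGTTAATTATtacccgcggc
The matches start 58, 121, 73, 32 and 24 bases upstream of the start sites, in this order. The Nceh1 match is the reverse complement of the motif as written. Alb read 18470 to 18670 in hepatocytes, and Pcbd1, the dimerisation cofactor of HNF1, had a smallest difference of -1.52 (adjusted p = 0.00058). The 3 higher genes had smallest differences of 1.13, 1.18 and 1.26. A match describes letters in a window, and whether a factor binds there was not tested.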

How the data were processed

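RNA of the 4 liver populations was hybridised as biotin-labelled cRNA to Affymetrix mouse gene arrays. The deposited table holds a linear intensity for each probe set on each array. Affymetrix Expression Console and MAS5 5.0 are the tools named, per the submitters' processing notes, with no statement of their roles. How background was corrected, how arrays were normalized and which build was used are not given in the sources used here. Deposited intensity values, from 10.6 to 28854 over 25194 probe sets, were used as they were, since the medians of the arrays were alike (216.5 to 232.9). On the log2 scale, arrays of a group correlated at 0.9859 to 0.9957 across probe sets, which are not independent.

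GEO's platform annotation gave 1 gene symbol to 21181 probe sets, several to 1379 and none to 2634, and only the first were used. Of these, 21097 matched the RefSeq table by Entrez identifier and 84 did not. Each of the 19537 genes was read from its probe set of highest mean intensity. Genes above the pooled median of 224.5 on at least 2 of the 11 arrays were kept, which left 12082. They were fitted as log2(intensity + 83) with 4 group means in R 4.3.3 with limma 3.58.1 (7 residual and 4.86 prior degrees of freedom). Tests were two-sided, with Benjamini-Hochberg adjustment within each contrast at 0.05 and a minimum log2 difference of 1. The fit was also run on simulated data. There the 4 groups had equal means, except for a set of genes shifted alike in Kupffer cells and LSEC. The real groups differed from each other in many genes, so that run does not measure how the rule performs here. Arrays were grouped by their titles.

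The genes to describe and the 34 gene lists were chosen with earlier results of these data known. Named genes were the 15 largest and the 10 largest even differences in each direction (within 0.5 inside the pair), up to 4 called and 2 other members of each list, and 13 genes named in any case. Other genes were named after their values were seen. Alternatives were another pseudocount (16 or the pooled median), no filter, quantile normalization, the mean of probe sets, all 13 arrays, another size limit, trended and robust variances, the replicate number as a block and each array left out. The use of 7-day and 14-day HSC in place of 1-day HSC was chosen after seeing the data. Array build was not named, so gene coordinates were not taken from the annotation. Promoter windows are those of RefSeq on GRCm38.p6.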

Additional observations from a re-analysis of the deposited data

Results flagged for a closer look

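Some genes named as shared still differed within the pair on their side of the comparison, by limma on the same arrays. Among the higher genes, Kupffer cells exceeded LSEC on the log2 scale by 1.91 for Mrc1 (adjusted p = 8.2e-06), by 1.98 for Clec1b (adjusted p = 5.2e-06), by 1.17 for Maf (adjusted p = 5.1e-05) and by 1.03 for Slfn5 (adjusted p = 0.0018). In each of these 4 genes all 3 Kupffer arrays lay above all 3 LSEC arrays. LSEC replicate 3 was the lowest array of the pair for each. Other called genes also differed within the pair, and Stab1 ran the other way (Kupffer minus LSEC -1.33, adjusted p = 1.7e-07). Of the 115 higher genes, 23 were higher in Kupffer cells than in LSEC by the same rule and 6 were lower.

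Among the lower genes, hepatocytes exceeded 1-day HSC by 1.55 for Serping1 (adjusted p = 3.1e-06), by 2.60 for Cyp2e1 (adjusted p = 3.6e-06), by 2.51 for Cyp2c29 (adjusted p = 3.2e-07), by 1.91 for Reep6 (adjusted p = 2.6e-06) and by 1.73 for Serpinf1 (adjusted p = 1.6e-07). For 2 genes 1-day HSC were the higher, with a difference of hepatocytes minus 1-day HSC of -1.45 for Bco1 (adjusted p = 3.9e-06) and -1.48 for Cdh2 (adjusted p = 3e-05).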

How the results depend on the processing

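The counts of 115 higher and 119 lower genes depended on the constants of the rule. With the pooled median added before taking logs they were 67 and 76, all among the main calls, and a minimum log2 difference of 0.5 gave 436 and 310, and none gave 933 and 557. The averaged contrast gave 2380 and 2013 genes at 0.5 and 4472 and 3899 with no minimum. Leaving out 1 array gave 103 to 131 higher and 83 to 149 lower genes, and 920 to 972 and 800 to 889 in the averaged contrast. The lowest and highest lower counts were those without 1-day HSC replicate 1 and replicate 2. A constant of 16, no filter, quantile normalization, the mean of probe sets, all 13 arrays and trended variances kept the 4 counts within 1.5 times. With the replicate number as a block the counts were 120 and 123 (113 and 118 of them main calls) and 954 and 879 in the averaged contrast. Deviations of same-numbered arrays correlated at r = -0.11 to 0.11. The titles do not say that the numbers pair arrays. With so few arrays in a group, these values cannot show or exclude pairing.

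With 7-day and 14-day HSC as the HSC group, treated as replicates of 1 group and chosen after seeing the data, 143 genes were higher and 123 lower, and 989 and 1084 in the averaged contrast. Of 87 named genes followed through every setting, 62 kept direction and call, 11 lost the call and 14 reversed in their nearest difference. These were Adh1 (0.489), Alb (3.41), Apoc3 (0.298), Cyp2c29 (0.205), Cyp2e1 (0.522), Cyp4a14 (0.09), Krt8 (0.347), Krt18 (0.038), Rbp4 (0.47), Serpina1c (1.242), Srxn1 (0.666) and Ttr (0.553) among the lower genes, and Dhrs3 (-0.562) and Dysf (-0.011) among the higher. By limma, the largest adjusted p of the 4 differences was 0.04 for Krt8 and from 0.057 to 0.99 for the others. A change of sign close to 0, as for Dysf and Krt18, is a lost difference. The cause was not tested. Under the other settings no named gene reversed, and the most that lost the call was 12, with the pooled median as constant. Intensities near the low end limit the size of a difference, not depth.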

Other observations

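With 7-day and 14-day HSC in place of the 1-day arrays, 58 more genes were called higher and 67 more lower. This choice was made after seeing the data, and the 2 culture times were treated as replicates of 1 group. Of the 115 main higher calls 85 were kept (73.9%), which is 59.4% of the 143, and of the 119 lower calls 56 (47.1%), which is 45.5% of the 123. The added higher genes were led by Cdh5, with a smallest difference of 3.49 (adjusted p = 2.9e-09 by limma). Pecam1 followed the same pattern, at 1.85 (adjusted p = 1.8e-08), as did Cxcl16, a transmembrane chemokine, at 2.79 (adjusted p = 5.4e-08). Cxcl16 read 4770, 4171 and 5074 in Kupffer cells, 4036, 4026 and 2669 in LSEC, 232, 268 and 245 in hepatocytes, 1643 and 2111 in 1-day HSC and 475 and 401 in longer culture. Inpp5d, a phosphatase that restrains signalling in blood cells, and the DNA sensor Aim2 were added at 1.77 and 1.69.

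Some of the added lower genes were lower in 1-day HSC than in the longer cultures. Nipal1, a magnesium transporter, read 2289, 1641 and 1187 in hepatocytes, 287 and 277 in 1-day HSC and 1697 and 1656 in longer culture, against at most 115 in Kupffer cells and LSEC (smallest difference -3.15, adjusted p = 4.7e-08). Fst, the activin antagonist follistatin, read 1667, 2729 and 2527, 549 and 490 and 2530 and 2387 on the same arrays, and at most 300.5 in the pair (-2.74, adjusted p = 5.4e-08). Vegfa, a growth factor for endothelium, read 3773, 4149 and 4841 in hepatocytes, 2024 and 2253 in 1-day HSC and 4776 and 4066 in longer culture, against 230.4, 275 and 287 in Kupffer cells and 894, 925 and 1431 in LSEC (-1.92, adjusted p = 2.4e-06). These genes were named after their values were seen.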
